A study of Homo sapiens with 8 samples.

Results

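The comparison set the RNA recovered with miR-23b directly against the RNA recovered with miR-27a in HEK293T cells, a widely used human line of embryonic kidney origin. It rested on 4 of the 8 arrays of the series, namely the 2 pull-down arrays of each miRNA, chosen by their labels and joined into pairs by replicate number. In each group the cells had received a biotin-carrying duplex of the miRNA (200 pmol, synthetic), with HiPerFect as the transfection reagent, and were harvested 24 h later. The duplex and the RNA attached to it were caught on streptavidin beads before RNA extraction. The remaining 4 arrays held RNA of cells transfected with the same duplexes but without a pull-down (the inputs, 2 for each miRNA), and served only to check the RNA level. All arrays were Illumina bead arrays, and all cells of the study were HEK293T cells given 1 of the 2 duplexes. No control duplex without targets entered the comparison, so that binding to beads or to any duplex enters both sides of the comparison. The labels do not say whether replicates came from separate cultures, and the p-values cover the spread among these arrays alone, part of which may be technical.

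MiRNAs guide Argonaute proteins to mRNAs, mostly through base pairing between the seed, the bases 2 to 8 counted from the 5′ end, and sites in the 3′ untranslated region, which lowers the stability or translation of the mRNA. MiR-23 and miR-27 are produced from shared primary transcripts and have been studied for roles in cell growth, lipid metabolism and differentiation. A pull-down with a biotinylated miRNA collects the RNA that stays with the miRNA through the washes, and the direct contrast asks which RNA each miRNA held more of. The labels name the miRNAs without an arm. The mature sequences below, from RefSeq (GRCh38.p14), are those of the 3p arms, to which the bare names usually refer, and are shown because the seeds are nearly identical (seed in capitals, 5′ to 3′). MiR-23a-3p and miR-27b-3p, of the same families, are given for comparison.
hsa-miR-23b-3p: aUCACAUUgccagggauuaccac
hsa-miR-23a-3p: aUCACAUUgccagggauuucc
hsa-miR-27a-3p: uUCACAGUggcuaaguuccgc
hsa-miR-27b-3p: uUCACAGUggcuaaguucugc
MiR-23b-3p lies at chr9:95085265-95085287 on the plus strand and miR-27a-3p at chr19:13836447-13836467 on the minus strand. Their seeds differ at 1 of 7 positions (U7G, counted from the 5′ end with the base of miR-23b first), and the mature forms differ at 10 of the 21 positions that both have. The matching site in an mRNA would read AAUGUGA for miR-23b and ACUGUGA for miR-27a. Each seed is shared by 3 mature miRNAs in the RefSeq table. Which of the recovered mRNAs carry such sites was not analysed here.

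The deposited values were on a log2 scale, with medians of 9.09 to 9.12 on the 8 arrays. Of 14479 probes, 12008 were assigned to 1 gene, which gave 9535 genes, each represented by its brightest probe. Across probes, the replicate arrays correlated at r = 0.977 for miR-23b and 0.984 for miR-27a, and arrays of different miRNAs at 0.955 to 0.974, so that the pull-downs resembled each other nearly as much as replicates did. Of 10 genes listed as typical of HEK293T cells 8 were measured, with mean input values between 8.04 (KRT18) and 13.05 (VIM), and of 10 markers of other cells only ALB and COL1A1 were measured, at 8.50 or less in the inputs.

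A large set of transcripts was recovered unequally. In the paired fit (limma, adjusted p under 0.05), 3353 of 14479 probes differed (23.2%), of which 1775 were higher with miR-23b and 1578 higher with miR-27a. At the level of genes, 1268 were higher with miR-23b (13.3%) and 1081 higher with miR-27a (11.3%). Among these, 131 differed by more than 1 on the log2 scale in favour of miR-23b and 69 in favour of miR-27a, and 4 and 8 by more than 2. The median size of the difference was 0.56 and 0.50 for the called genes of each side and 0.20 over all genes. In 2107 of the 2349 called genes both arrays of one miRNA lay above both arrays of the other, which was also the case for 47.2% of all genes. Without the pairing, 137 probes passed (0.946%), 83 higher with miR-23b and 54 higher with miR-27a. All 137 also passed in the paired fit. The pairing leaves the estimated difference of a probe unchanged, so that the sign could not differ between the fits. The called sets therefore rest largely on the pairing, as does each gene named below unless it is said to have passed in both fits. In the paired fit a probe has 1 residual degree of freedom, and its error is mostly that shared by all probes, so that standard errors (SE) were nearly constant.

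**Figure D1:**
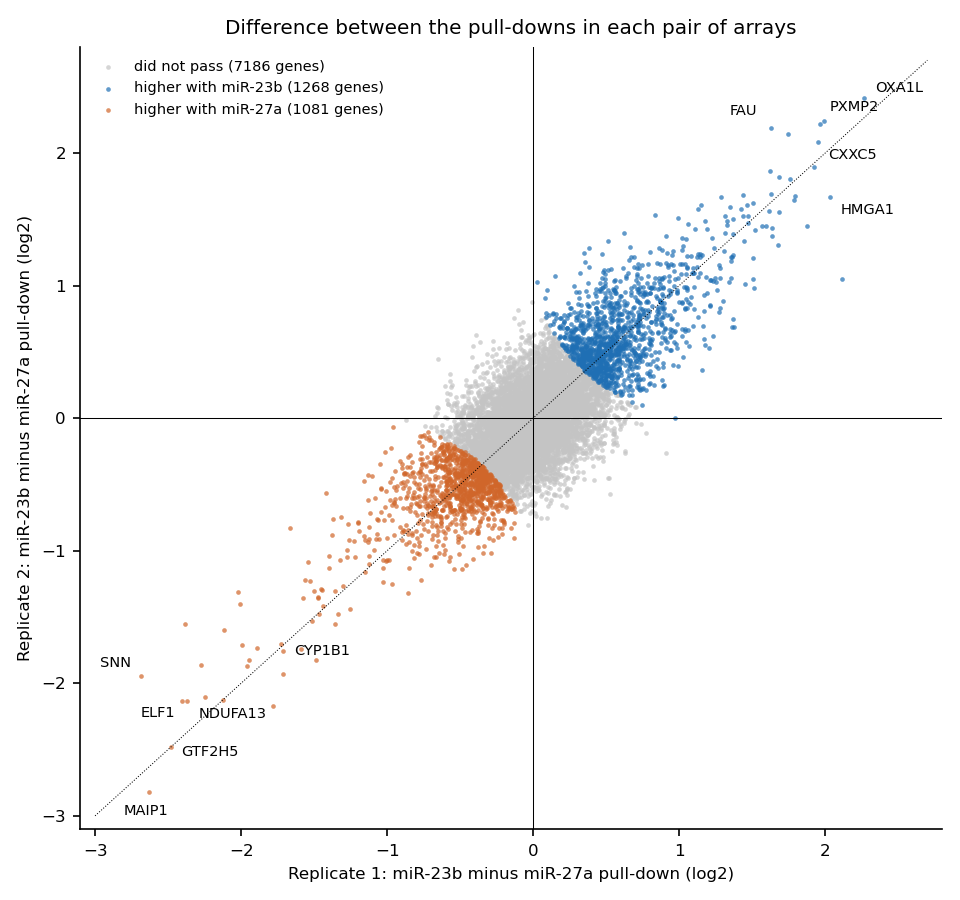
Difference between the pull-downs (miR-23b minus miR-27a, log2) in replicate 1 (horizontal) and replicate 2 (vertical), 1 point per gene, with the line of equality dotted. The 1268 genes called higher with miR-23b and the 1081 called higher with miR-27a lie in opposite corners, and OXA1L and MAIP1 are at the ends.

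The inputs differed far less. With the same paired fit 111 input probes passed (0.767%), and none did without the pairing. At an unadjusted p under 0.05, 1363 input probes differed with the pairing and 57 without it, of 14479. Over genes, the standard deviation of the difference was 0.37 between the pull-downs and 0.12 between the inputs, and no input difference exceeded 0.59. Of the 1268 genes higher with miR-23b, 11 also differed between the inputs, all 11 in the same direction, and of the 1081 higher with miR-27a, 30 did, 20 of them in the same direction. Over all 9535 genes 72 did. When each pull-down was first set against its same-numbered input, 1043 and 830 of these genes still passed with the same sign. Of the 150 genes with a call that are named in the comparisons, 138 passed net of input, and SFRP1, PPARG, MAP2K4, PRKRA, TNRC6B, ERCC5, SPRED1, IFIT1, ELOVL6, SLC5A6, KLHL8 and KIFC1 did not.

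The gene with the largest preference for miR-23b was OXA1L, which inserts proteins into the mitochondrial inner membrane. Its values were 11.67 and 11.78 with miR-23b and 9.40 and 9.37 with miR-27a, a log2 difference of 2.34 ± 0.13 (SE, n = 2 pairs), an apparent 5.06-fold, with limma's adjusted p = 1.2e-09 (0.018 unpaired). Inputs of OXA1L differed by -0.02, and the miR-23b pull-down lay above its input while the miR-27a pull-down lay below. C15orf61 followed, at 12.61 and 12.30 against 10.62 and 10.06 (2.11 ± 0.13). PXMP2, a channel protein of the peroxisomal membrane, had 12.73 and 12.37 against 10.76 and 10.15 (2.09 ± 0.13). CXXC5, a zinc finger protein that restrains Wnt signalling, had 12.71 and 12.78 against 10.75 and 10.69 (2.02 ± 0.13). In all of these both miR-23b arrays were high, both miR-27a arrays were low and the groups were far apart.

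Among the next were genes of varied function. RNASEK, a ribonuclease, differed by 1.95 ± 0.13, and FAU, which encodes a ubiquitin-like protein fused to a small-subunit ribosomal protein, by 1.91 ± 0.14. The growth factor midkine (MDK) differed by 1.91 ± 0.13 and the chromatin protein HMGA1, an architectural factor that binds AT-rich DNA, by 1.85 ± 0.13. HMGA1 read 13.01 and 13.04 with miR-23b and 10.98 and 11.37 with miR-27a, against inputs that differed by -0.02. B4GAT1, a glycosyltransferase acting on dystroglycan, differed by 1.78, MAPK3, an extracellular signal-regulated kinase, by 1.75, and EIF2D, a factor that delivers initiator tRNA, by 1.74. ZNF580 (1.73), SHISA5 (1.72), TMEM126A, needed for assembly of respiratory complex I (1.66), and the RNA-binding protein gene RBPMS2 (1.66) completed the 15 largest. These 15 genes were picked by the pull-down difference, a choice that favours pull-downs on either side of the inputs. Their position around the inputs is therefore given as a description. In 15 of 15 the miR-23b pull-down lay above its same-numbered input in both replicates, and in 15 of 15 the miR-27a pull-down lay below. Among all 9535 genes, the miR-23b pull-down lay above and the miR-27a pull-down below in 572. Input differences ranged from -0.15 to 0.17, and 14 of 15 also passed unpaired, the exception being RBPMS2 (adjusted p = 0.059).

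The preference for miR-27a was led by MAIP1, which encodes a mitochondrial matrix protein that interacts with an AAA protease. Its values were 9.47 and 9.04 with miR-23b and 12.10 and 11.86 with miR-27a, a difference of -2.72 ± 0.13 (an apparent 6.61-fold in favour of miR-27a, limma's adjusted p = 3.5e-10, 0.021 unpaired). MAIP1 was slightly higher in the miR-23b inputs (by 0.44, adjusted p = 0.0051), that is, in the direction opposite to the pull-downs. GTF2H5, the smallest subunit of the transcription and repair factor TFIIH, had 11.40 and 11.21 against 13.88 and 13.69 (-2.48 ± 0.13). SNN had 7.66 and 7.87 against 10.34 and 9.81 (-2.31 ± 0.15), and its miR-23b values lay near the bottom of the scale. So did the miR-23b values of MON1A (7.73 and 7.66) and CINP (7.59 and 7.80), which are described below. Like MAIP1, SNN was higher in the miR-23b inputs (by 0.45, adjusted p = 0.0042).

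ELF1, an ETS transcription factor, had 10.14 and 10.18 with miR-23b and 12.54 and 12.31 with miR-27a (-2.27 ± 0.13), and lay above its input by 0.87 with miR-23b and by 3.09 with miR-27a. NDUFA13 of respiratory complex I had 10.02 and 10.24 against 12.39 and 12.38 (-2.25 ± 0.13). ATP5PO, which joins the stalk of ATP synthase to its catalytic head, had 11.95 and 11.90 against 14.20 and 14.00 (-2.17 ± 0.13). For both of the latter the miR-23b pull-down lay below its input and the miR-27a pull-down above. The mitochondrial ribosomal protein genes MRPL17 (-2.13) and MRPS18C (-2.07) followed, as did COQ5, a methyltransferase of ubiquinone synthesis (-1.98), and MON1A, which takes part in the activation of a late endosomal RAB (-1.97). FAHD1, a mitochondrial oxaloacetate decarboxylase (-1.91), the Integrator subunit INTS12 (-1.88), MAP2K3, a kinase of the stress-activated branch of MAP kinase signalling (-1.86), CINP, a partner of a cyclin-dependent kinase (-1.85), and MTFR1L (-1.82) completed the 15 largest. In 15 of 15 the miR-27a pull-down lay above its input in both replicates. The miR-23b pull-down lay below its input in 13 and above it in 2, ELF1 and MAP2K3. These 15 genes were likewise picked by the pull-down difference. Over all genes the miR-27a pull-down lay above and the miR-23b pull-down below in 2.94%, and both lay above in 30.7%. Unpaired, 14 of 15 passed, the exception being MON1A (adjusted p = 0.061).

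**Figure D2:**
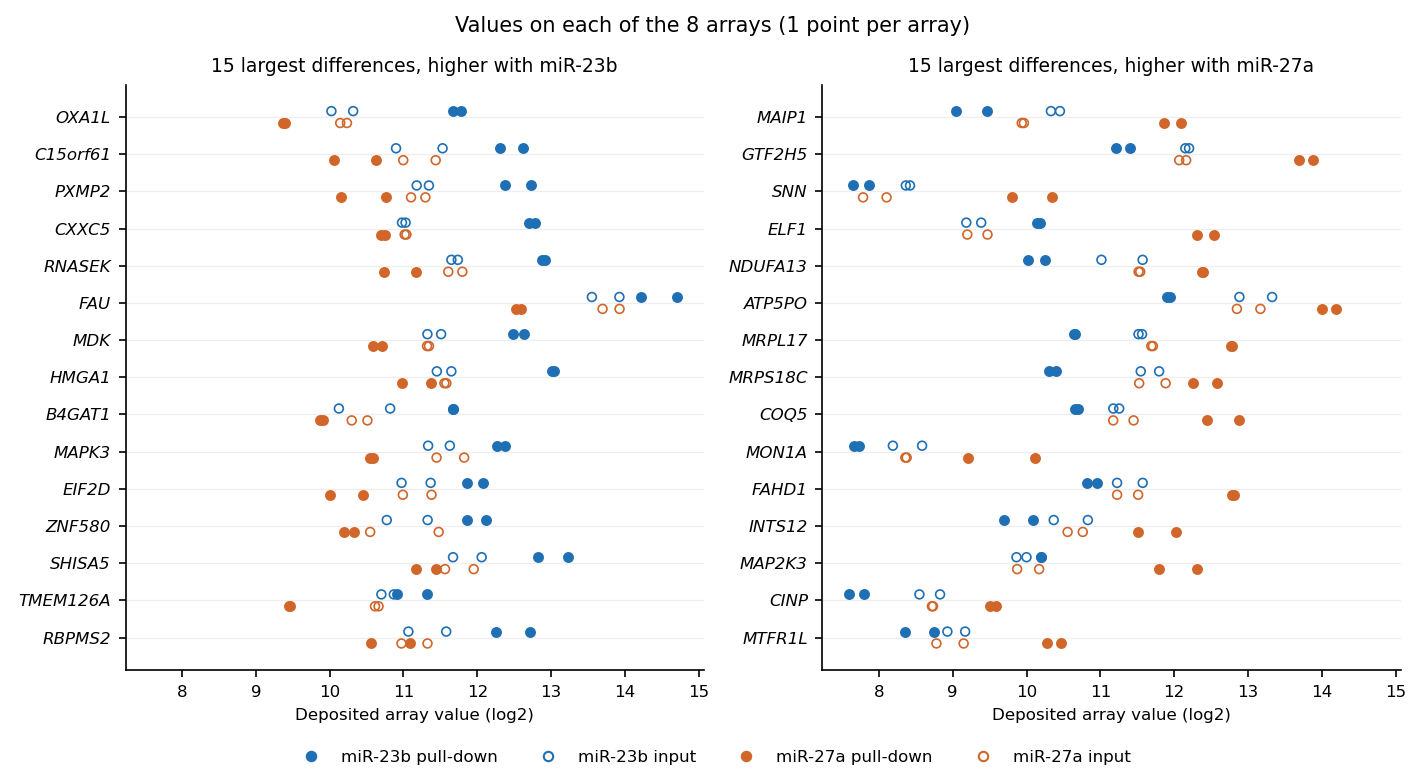
Deposited log2 values of the 15 genes with the largest difference in each direction on each of the 8 arrays, 1 point per array (filled, pull-down; open, input). Inputs of both miRNAs lie close together for most genes, and are furthest apart for MAIP1 and SNN (by 0.44 and 0.45). The pull-downs part to either side of the inputs, except for ELF1 and MAP2K3, where both pull-downs lie above.

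Several genes carried more than 1 probe, and their probes are a check within the array, although not an independent sample. Of 2104 genes with more than 1 probe, all probes passed as higher with miR-23b in 158 and as higher with miR-27a in 136. CXXC5, FAHD1, MDK, PXMP2, TJP1, STAU1 and NME1 are quoted here because all their probes passed. The agreement of their probes in sign was thus fixed by the choice. The probes of CXXC5 differed by 2.02 and 1.94, and those of FAHD1 by -1.91 and -2.31. The probes of others were further apart, with 1.91 and 0.70 for MDK and 2.09 and 1.28 for PXMP2, all of which passed. In UBE2L6, PEX16, DHX37, ID2, IRF7 and PPARG, described below by their brightest probe, the other probe did not pass. Among genes outside the 30 above, TJP1, a scaffold of tight junctions, had -1.65 and -1.67, and STAU1, which binds double-stranded RNA, had -1.46 and -1.85. NME1, a nucleoside diphosphate kinase, had -1.41 with its brightest probe and -1.22 and -2.64 with the other two. TJP1, STAU1 and the brightest probe of NME1 passed in both fits, the last with values of 13.79 and 13.73 against 15.12 and 15.203. Probes passed in opposite directions in 7 genes (CLUAP1, FMC1, GATD1, GPN2, LAMP2, RPL37A and SNU13), all named after their values were seen. In LAMP2, whose transcripts are spliced to alternative last exons, 1 probe was higher with miR-23b (0.37) and 2 were higher with miR-27a (-0.78 and -0.91), while its remaining probes did not pass.

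The 2 sets differed in how they lay relative to the inputs. Since these values share the pull-down arrays with the contrast, they are given as a description. Among the 1268 genes higher with miR-23b, the miR-23b pull-down was above and the miR-27a pull-down below its input in both replicates for 425 (33.5%), both pull-downs were below for 284 (22.4%) and both above for 159 (12.5%). Among the 1081 genes higher with miR-27a, both pull-downs were above input for 605 (56.0%), only miR-27a was above and miR-23b below for 148 (13.7%), and both were below for 111 (10.3%). Over all genes both were above in 30.7% and both below in 30.7%. Only miR-23b was above and miR-27a below in 572 of all 9535 genes, and the reverse held in 280. The higher genes of miR-23b were thus mostly ones that miR-27a recovered below input, and those of miR-27a were mostly ones recovered above input with either miRNA.

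**Figure D3:**
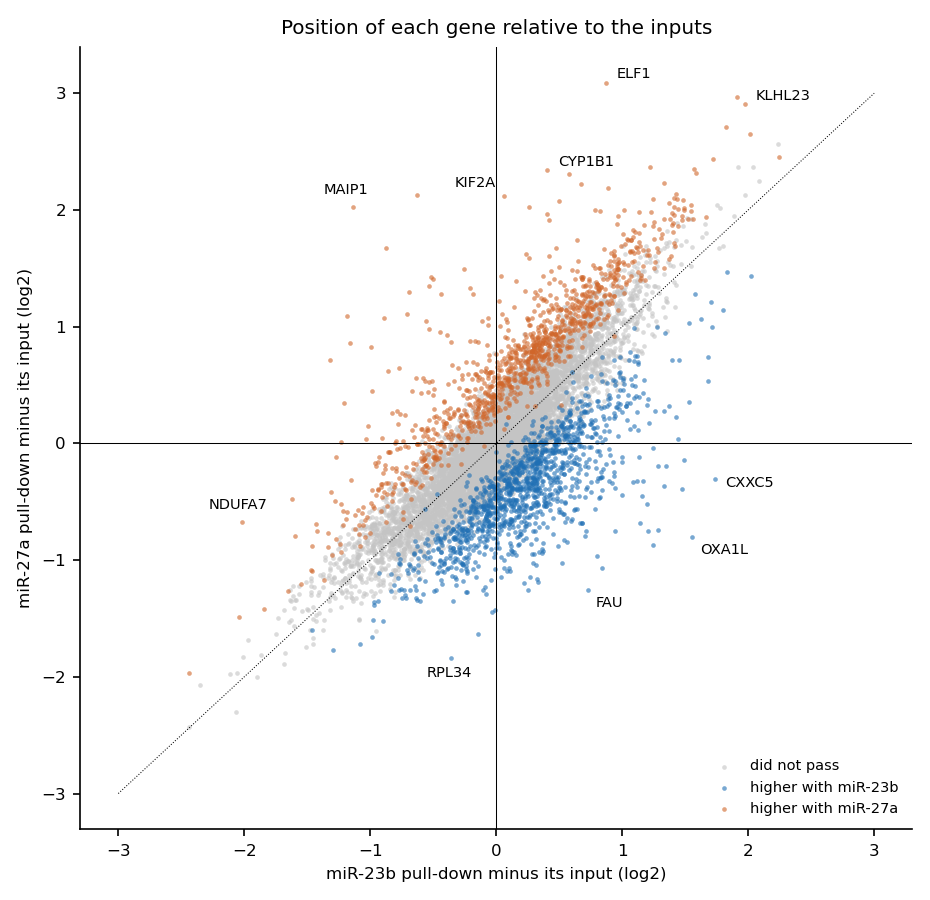
Mean pull-down value minus mean input value (log2) with miR-23b (horizontal) and with miR-27a (vertical), 1 point per gene, with equality dotted. Most genes called higher with miR-27a lie in the upper right, where both pull-downs exceed input, and many called higher with miR-23b lie in the lower right, where only the miR-23b pull-down does.

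Called genes also differed in genomic span, the distance from start to end of the gene in RefSeq (GRCh38.p14), which includes introns and is not the length of the mRNA. The median span was 17503 bp for genes higher with miR-23b, 38986 bp for those higher with miR-27a and 28353 bp over all genes with a span. With genes ordered by span into 5 equal groups, from the shortest to the longest, the share higher with miR-23b went from 19.9% through 16.3%, 13.2% and 9.39% to 7.71%. The share higher with miR-27a was 6.24% in the shortest group and 14.9% and 13.3% in the longest 2. By mean input value, the share higher with miR-23b went from 5.09% in the dimmest of 5 groups to 19% in the brightest, whereas that of miR-27a was 6.35% in the dimmest and between 11.4% and 13.2% in the others. The part of span and brightness in the results on single lists below was not tested.

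**Figure D4:**
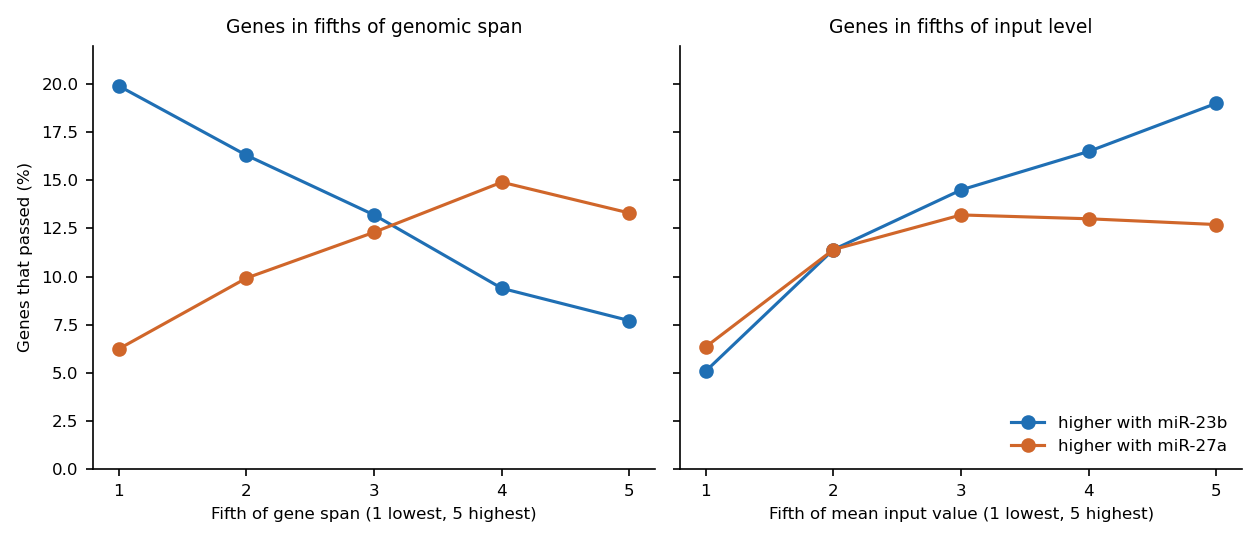
Percentage of genes called higher with each miRNA in 5 equal groups by genomic span (left) and by mean input value (right), 1 being the lowest. With miR-23b the share goes down with span and up with input value, and with miR-27a it is lowest in group 1 of both.

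Reported targets of the 2 miRNAs, listed from general knowledge, did not as a group follow the miRNA. Of 18 measured genes reported as miR-23 targets, 2 were higher with miR-23b (11.1%) and 3 higher with miR-27a (16.7%), with a median difference of -0.16. HMGB2, a chromatin protein of the HMG-box family, had 12.04 and 12.12 with miR-23b and 10.76 and 11.07 with miR-27a (1.17 ± 0.13, limma's adjusted p = 3.7e-06, 0.054 unpaired). PPIF, the cyclophilin of the mitochondrial permeability transition pore, differed by 0.70 ± 0.13. HMGB2 and PPIF had the 2 groups apart, with inputs that differed by -0.03 and 0.10. CHUK, a kinase of the NF-kappaB pathway, was higher with miR-27a (11.64 and 11.27 against 12.23 and 11.92, -0.62 ± 0.13), as were APAF1, the apoptosome scaffold (-0.60), and the caspase inhibitor XIAP (-0.43), both named after their values were seen. None of the 18 passed unpaired in limma, where 4 had an unadjusted p under 0.05.

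Of 19 measured genes reported as miR-27 targets, 3 were higher with miR-23b (15.8%) and 2 higher with miR-27a (10.5%), with a median of 0.02. CYP1B1, a cytochrome P450 that oxidizes oestrogens and is a well-known miR-27 target, had 8.61 and 8.46 with miR-23b and 10.34 and 10.16 with miR-27a. Its difference was -1.72 ± 0.13 (an apparent 3.28-fold, limma's adjusted p = 2.7e-08, 0.028 unpaired), and CYP1B1 was the only gene of either list that passed in both fits. It lay above its input by 0.41 with miR-23b and by 2.34 with miR-27a. SFRP1, a secreted Wnt antagonist (10.46 and 10.04 against 9.72 and 9.44, 0.67 ± 0.13), was higher with miR-23b, as were MAP2K4 (0.43) and PPARG, the nuclear receptor of fat cell formation. The inputs of SFRP1 differed by 0.31 in the same direction, and net of input its difference was 0.36 (limma's adjusted p = 0.062). For MAP2K4 the inputs differed by 0.22, and 0.21 was left net of input (adjusted p = 0.32). PPARG differed by 0.44 ± 0.13, but its groups overlapped, its inputs differed by 0.47 in the same direction (adjusted p = 0.0017), and net of input its difference was -0.03. GCA was higher with miR-27a (-0.42), although its inputs were higher with miR-23b by 0.39 (adjusted p = 0.029). MAP2K4 and GCA were named after their values were seen.

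Gene families were next compared with the shares over all genes, 13.3% higher with miR-23b and 11.3% higher with miR-27a. At these shares many lists would hold called genes of both directions, so that members on both sides do not set a list apart. Families defined by symbol can hold a few genes that are no members by function. They are described by counts and medians without a test of the family.

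The vacuolar ATPase, the proton pump of lysosomes, had the highest share of all lists described here. Of 15 measured subunits 8 were higher with miR-23b (53.3%), 3 higher with miR-27a (20%) and 4 did not pass, with a median of 0.37. ATP6V0A1 of the membrane sector had 12.75 and 12.91 against 11.67 and 11.69 (1.15 ± 0.13, limma's adjusted p = 3.7e-06) and was the subunit that passed in both fits. ATP6V0D1 differed by 0.80, whereas ATP6V1C1 of the cytosolic sector was higher with miR-27a, at 10.50 and 10.10 against 11.23 and 11.09 (-0.86 ± 0.13). Subunits of 1 pump thus lay on both sides.

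Aminoacyl-tRNA synthetases, which charge tRNAs, included 10 of 34 higher with miR-23b (29.4%) and 2 higher with miR-27a (5.88%), with a median of 0.14. QARS1 had 12.34 and 12.50 against 11.47 and 11.49 (0.94 ± 0.13), with the groups apart. HARS1 (0.82 ± 0.15) and the mitochondrial AARS2 (0.64 ± 0.13) also passed, but in both the lower miR-23b array, replicate 1, lay below the higher miR-27a array, replicate 2. None of the 34 passed unpaired in limma (5 at an unadjusted p under 0.05). Enzymes of glycolysis and the TCA cycle had 10 of 38 higher with miR-23b (26.3%) and 1 higher with miR-27a (2.63%), with a median of 0.04. GAPDH had 13.83 and 14.25 against 13.24 and 13.33 (0.76 ± 0.13), and SDHD, which anchors succinate dehydrogenase in the membrane, differed by 0.78. SUCLA2, a subunit of succinyl-CoA synthetase, was the one higher with miR-27a (-0.75), and none of the 38 passed unpaired (5 at an unadjusted p under 0.05).

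Families of membrane proteins had higher shares on the miR-23b side as well. Of 165 solute carriers, which move metabolites and ions across membranes, 34 were higher with miR-23b (20.6%) and 14 higher with miR-27a (8.48%), with a median of 0.12, and 1 passed unpaired. That one was SLC35A4, of the nucleotide-sugar transporter family, with 12.15 and 12.08 against 10.80 and 10.87 (1.29 ± 0.13). SLC46A3, a lysosomal transporter, was higher with miR-27a (-1.28 ± 0.13) while its inputs were higher with miR-23b by 0.45 (adjusted p = 0.0039). SLC9A3-OT1, which shares the symbol but is a transcript overlapping a carrier gene, had -1.04. Of 127 TMEM genes 27 were on the miR-23b side (21.3%) and 14 on the miR-27a side (11.0%), among them TMEM179B (0.98) and TMEM30A, a subunit of phospholipid flippases (-0.87, or -0.55 net of input). Tubulins, which are not membrane proteins, had 4 of 13 higher with miR-23b (30.8%) and none higher with miR-27a. Their median was 0.03, and the called ones were led by TUBB2B (0.70), TUBB4A (0.68) and TUBB4B (0.53, groups overlapping). No tubulin passed unpaired in limma (3 at an unadjusted p under 0.05).

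Other families had higher shares on the side of miR-27a. Of 23 ubiquitin-conjugating enzymes, which pass ubiquitin from the activating enzyme to ligases, 6 were higher with miR-27a (26.1%) and none with miR-23b, with a median of -0.21. UBE2L6 had 9.06 and 8.82 against 10.39 and 9.89 (-1.20 ± 0.13), although its other, dimmer probe did not pass (0.23, limma's adjusted p = 0.24). UBE2E2 differed by -0.71 and UBE2Q2 by -0.64. At an unadjusted p under 0.05 in the paired limma fit, 9 were on the miR-27a side and 1 on the miR-23b side, and none of the 23 passed unpaired (3 unadjusted). Of 20 genes of the TGF-beta and BMP pathway 5 were higher with miR-27a (25.0%) and none with miR-23b, with a median of -0.13. ID3, an inhibitor of basic helix-loop-helix factors and a BMP target gene, had 10.47 and 10.88 against 12.50 and 12.19 (-1.67 ± 0.15, limma's adjusted p = 3.3e-07) and passed in both fits. ACVR1, a type I receptor for BMPs, differed by -0.77, and ID2 by -0.52. None of the 7 SMAD genes, the signal carriers of this pathway, passed in limma, where 1 had an unadjusted p under 0.05.

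Kelch-like genes, many of which are adaptors of ubiquitin ligases, had 4 of 28 higher with miR-27a and none with miR-23b. At an unadjusted p under 0.05 in the paired limma fit there were 6 and 2. The share called for miR-27a, 14.3%, was near that over all genes (11.3%), with a median difference of -0.04. KLHL23 had 9.76 and 10.37 against 11.14 and 11.25 (-1.13 ± 0.14), although both pull-downs lay well above input, by 1.98 with miR-23b and by 2.91 with miR-27a. KLHL24 (-0.47) and KLHL8 (-0.44) were closer, and net of input KLHL8 was left with -0.20 (limma's adjusted p = 0.33), since its inputs differed by -0.23. F-box genes, the substrate receptors of another class of ubiquitin ligase, had 7 of 39 on the miR-27a side (17.9%). On the miR-23b side were 3 (7.69%), and the median was -0.03. Those higher with miR-27a included FBXW11 (-0.88, or -0.56 net of input), FBXO8 (-0.77) and FBXO28 (-0.65). RING finger genes had 6 of 56 higher with miR-27a (10.7%) and 9 higher with miR-23b (16.1%), led by RNF181 (11.73 and 11.85 against 10.13 and 10.39, 1.52 ± 0.13), RNF166 (1.30) and RNF26 (1.13), and RNF181 passed in both fits. Protein phosphatase subunits had 11 of 62 on the miR-27a side (17.7%) and 4 on the miR-23b side (6.45%), with a median of -0.10. Among them PPP1R7 (-0.78) and the catalytic subunit PPP1CC (-0.67) opposed PPP1R10 (0.75).

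HSP and DNAJ chaperones had 11 of 53 on the miR-27a side (20.8%) and 6 on the miR-23b side (11.3%), with a median of -0.04. DNAJC8, a J-domain protein found with the spliceosome, had 12.79 and 12.89 against 14.38 and 14.63 (-1.66 ± 0.13) and passed in both fits, DNAJC19 differed by -0.90, and the small heat shock protein gene HSPB1 was higher with miR-23b (0.67). Subunits of RNA polymerases I to III had 7 of 30 on the miR-27a side (23.3%) and 3 on the miR-23b side (10%), with a median of -0.07. POLR2D of polymerase II had 11.30 and 10.98 against 12.77 and 12.33 (-1.41 ± 0.13), POLR1E differed by -0.87 and POLR2H, shared by all 3 polymerases, by 0.76. In both families members thus lay on either side.

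**Figure D5:**
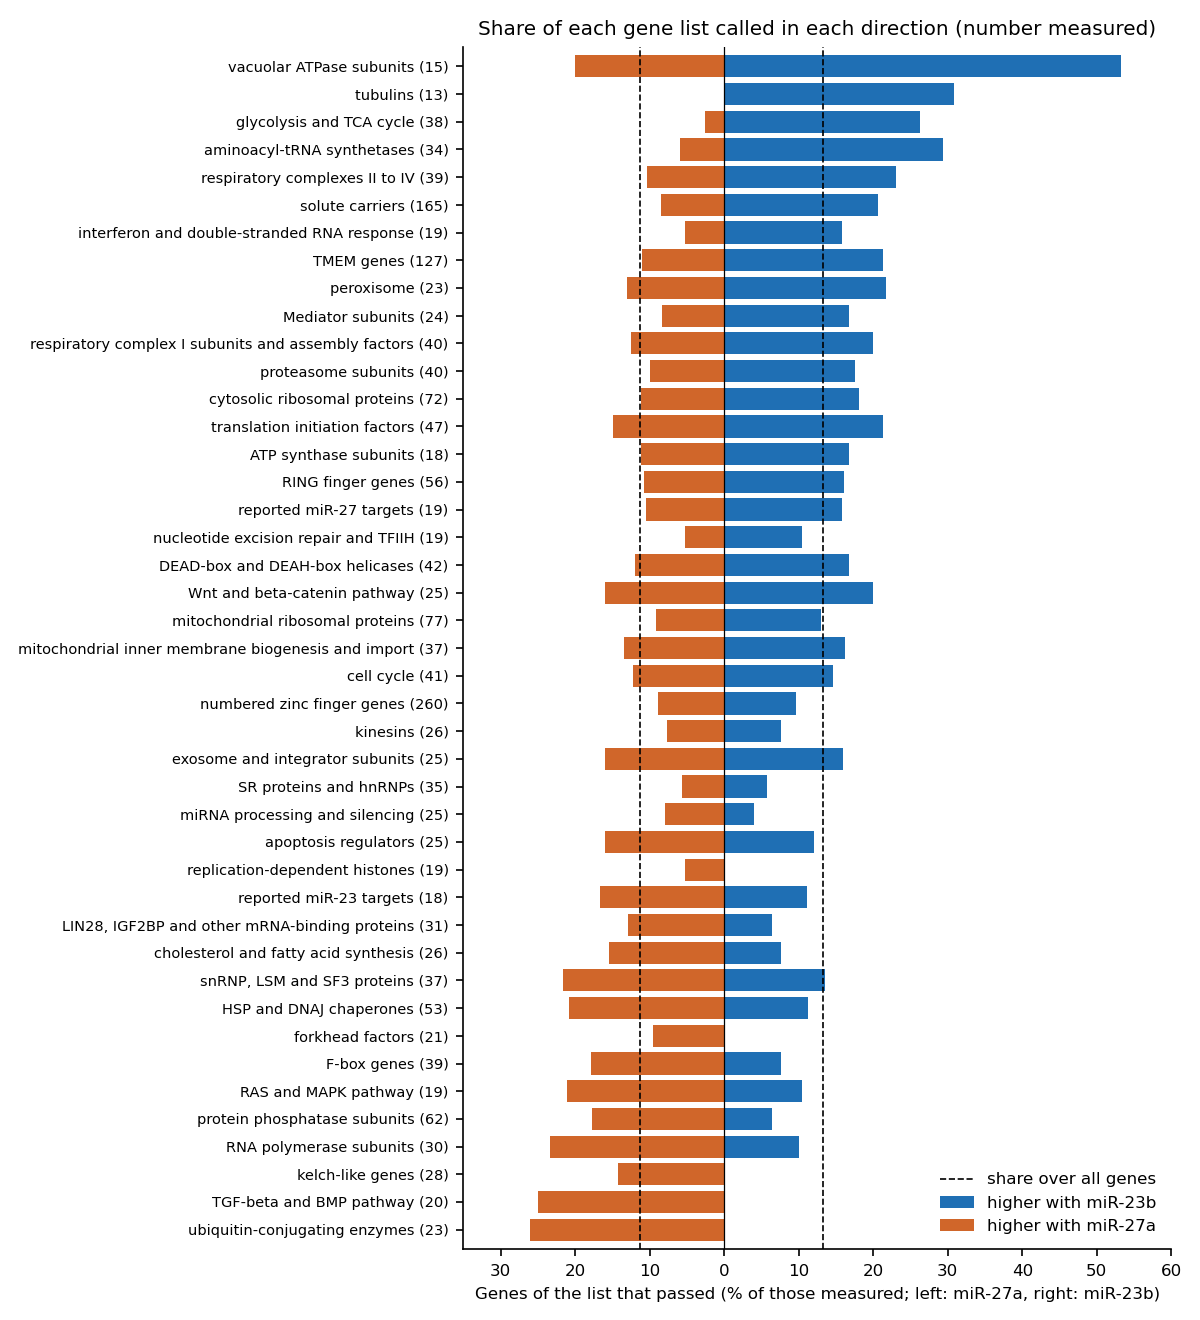
Share of measured genes called higher with miR-27a (to the left) and with miR-23b (to the right) in lists with at least 13 measured genes, with the number measured in brackets and the shares over all genes (11.3% and 13.3%) dashed. The vacuolar ATPase reaches 53.3% on the right, and ubiquitin-conjugating enzymes and the TGF-beta and BMP pathway have none on that side.

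Mitochondrial complexes had members on both sides. Of 40 genes of respiratory complex I, which oxidizes NADH, 8 were on the miR-23b side (20%) and 5 on the miR-27a side (12.5%). Besides NDUFA13, NDUFA7 was higher with miR-27a (9.27 and 9.002 against 10.77 and 10.30, -1.40 ± 0.13), whereas NDUFB6 was higher with miR-23b (12.48 and 12.73 against 11.39 and 11.60, 1.11 ± 0.13). NDUFA7 lay below its input with both miRNAs (changes of -2.02 with miR-23b and -0.67 with miR-27a). In complexes II to IV, 9 of 39 were on the miR-23b side (23.1%) and 4 on the miR-27a side (10.3%). COX6C (13.22 and 13.24 against 12.16 and 12.10, 1.10 ± 0.13) and COX14, an assembly factor (1.23), opposed COX5A (13.23 and 13.23 against 14.36 and 14.17, -1.03 ± 0.13), all 3 of cytochrome c oxidase. COX6C passed in both fits.

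ATP synthase also had members on both sides. Of its 18 genes, 3 were on the miR-23b side (16.7%) and 2 on the miR-27a side (11.1%), near the shares over all genes. Next to ATP5PO, ATP5MF had 11.98 and 12.15 against 13.42 and 13.57 (-1.43 ± 0.13) and passed in both fits, while ATP5ME had 14.70 and 14.43 against 13.75 and 13.77 (0.81 ± 0.13). Mitochondrial ribosomal proteins had 10 of 77 on the miR-23b side (13%) and 7 on the miR-27a side (9.09%), near the shares over all genes. MRPS12 of the small subunit had 13.13 and 13.44 against 11.84 and 11.77 (1.48 ± 0.13), opposite to MRPL17 and MRPS18C, and all 3 passed in both fits. In the list for biogenesis and import of the inner membrane, 6 of 37 were on the miR-23b side (16.2%) and 5 on the miR-27a side (13.5%), with OXA1L and MAIP1 at the 2 ends and TOMM5, a small subunit of the outer membrane translocase, at -1.52. In the peroxisome list, 5 of 23 were on the miR-23b side (21.7%) and 3 on the miR-27a side (13%), with PXMP2 and PEX16, needed to form the membrane (1.02), opposed to the ubiquitin ligase PEX10 (-0.82).

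Genes of translation had members on both sides likewise. Of 72 cytosolic ribosomal protein genes 13 were on the miR-23b side (18.1%) and 8 on the miR-27a side (11.1%), with a median of 0.04. Besides FAU, RPL34 had 11.31 and 11.67 against 9.96 and 10.08 (1.47 ± 0.13) and passed in both fits, and RPL13A differed by 0.95. RPL34 lay below its input with both miRNAs (changes of -0.36 and -1.84). Transcripts of processed pseudogenes may add to the signal of ribosomal protein probes. Of 47 translation initiation factor genes 10 were on the miR-23b side (21.3%) and 7 on the miR-27a side (14.9%), the latter including the kinase gene EIF2AK2. After EIF2D came EIF2B2, of the exchange factor for initiation factor eIF2 (11.26 and 11.15 against 9.91 and 9.97, 1.27 ± 0.13), and EIF3K (12.18 and 12.37 against 11.04 and 11.15, 1.18 ± 0.13), and these 3 passed in both fits. Proteasome genes had 7 of 40 on the miR-23b side (17.5%) and 4 on the miR-27a side (10%), with PSME2 and PSMB5 (0.84 each) on one side and PSMA1 (12.13 and 12.11 against 13.15 and 13.35, -1.13 ± 0.13), which passed in both fits, on the other.

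In RNA processing, snRNP, LSM and SF3 proteins of the spliceosome had 8 of 37 on the miR-27a side (21.6%) and 5 on the miR-23b side (13.5%). SF3B4 had 11.70 and 11.99 against 13.71 and 13.39 (-1.70 ± 0.14) and passed in both fits, whereas SNRPA, a protein of the U1 particle, differed by 1.25 and SNRPA1 by 0.94. SR proteins and hnRNPs had 2 of 35 on each side (5.71%), among them HNRNPL (1.04), SRSF4 (0.59) and SRSF2 (-0.48). DEAD-box and DEAH-box helicases had 7 of 42 higher with miR-23b (16.7%), among them the mRNA export helicase DDX39B (0.93) and DHX37 (0.65), and 5 with miR-27a (11.9%), led by DHX32 (-1.16), which passed in both fits. In the exosome and Integrator 4 of 25 were on each side (16%), with INTS12 opposed to INTS5 (0.76) and EXOSC7 (0.70). Genes of miRNA processing and silencing were few among the calls. Of 25 measured, TNRC6A, a GW182 protein that links Argonaute to deadenylation, was higher with miR-23b (0.56 ± 0.13), and its relative TNRC6B (-0.43 ± 0.13) and PRKRA, a partner of Dicer (-0.52 ± 0.13, or -0.33 net of input), were higher with miR-27a, with overlapping groups in the last 2. TNRC6B differed by -0.44 in the inputs as well (adjusted p = 0.0051) and by 0.01 net of input.

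Transcription factors and chromatin proteins had members on both sides. Numbered zinc finger genes had 25 of 260 on the miR-23b side (9.62%) and 23 on the miR-27a side (8.85%), both under the share over all genes, with ZNF580, ZNF385A (1.47) and ZNF792 (0.90) in front, of which ZNF580 and ZNF385A passed in both fits. Of 8 HMG proteins HMGA1 and HMGB2 were higher with miR-23b (25.0%) and none with miR-27a, with a median of 0.01. At an unadjusted p under 0.05 in the paired limma fit, 3 HMG genes were on the miR-23b side and 2 on the miR-27a side. Of 12 ETS factors, ELF1, ELF2 (-0.50) and 1 more were higher with miR-27a and ELF4 (0.38) with miR-23b. Forkhead factors had 2 of 21 higher with miR-27a, FOXN2 (-0.57) and FOXA1 (-0.43), and none with miR-23b. That share, 9.52%, was under the one over all genes (11.3%), and the median was -0.03. At an unadjusted p under 0.05 in the paired limma fit, 3 forkhead genes were on each side. Of 19 replication-dependent histone genes only H4C3 passed (-0.55). In Mediator, which links transcription factors to polymerase II, 4 of 24 were higher with miR-23b (16.7%), led by MED8 (10.18 and 10.10 against 9.04 and 8.86, 1.19 ± 0.13) and MED28 (1.01), and 2 with miR-27a (8.33%), led by MED27 (7.98 and 8.26 against 9.38 and 9.30, -1.22 ± 0.13). MED8 and MED27 passed in both fits. Of 19 genes of nucleotide excision repair and TFIIH, ERCC1 (0.66) and ERCC5 (0.43) were higher with miR-23b and only GTF2H5 with miR-27a.

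Signalling genes lay on both sides too. In the RAS and MAPK list 4 of 19 were higher with miR-27a (21.1%), led by MAP2K3, and 2 with miR-23b (10.5%), led by MAPK3. SPRED1, an inhibitor of RAS signalling, was higher with miR-27a (-0.70), and its inputs differed in the same direction by -0.42 (adjusted p = 0.0091), which left -0.28 net of input (adjusted p = 0.16). In the Wnt list 5 of 25 were higher with miR-23b (20%), among them CXXC5 and DVL3, a Dishevelled protein (0.81), and 4 with miR-27a (16%), among them the receptor gene FZD3 (-0.84). Among 25 apoptosis regulators, 3 were higher with miR-23b (12%), including HTRA2 (0.76), and 4 with miR-27a (16%), including the BH3-only genes PMAIP1 (-0.79) and HRK (-0.63). Of 19 genes of the interferon and double-stranded RNA response, IFIT1 (0.42), IRF7 (0.43) and 1 more were higher with miR-23b and EIF2AK2, the kinase PKR that binds double-stranded RNA, with miR-27a (-0.74). EIF2AK2 lay above its input with both duplexes, by 1.14 with miR-23b and by 1.98 with miR-27a.

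In lipid synthesis 4 of 26 genes were higher with miR-27a (15.4%), led by ACLY, which makes cytosolic acetyl-CoA (12.07 and 12.20 against 13.09 and 12.97, -0.90 ± 0.13), and by the fatty acid elongases ELOVL5 and ELOVL6 (-0.58 each), and 2 with miR-23b (7.69%). Net of input ELOVL5 was at -0.66 (limma's adjusted p = 0.00033) and ELOVL6 at -0.23 (adjusted p = 0.26), the inputs of ELOVL6 having differed by -0.35. Of 9 genes that use or handle biotin only the vitamin transporter gene SLC5A6 passed (0.42 ± 0.13). Whether streptavidin caught enzymes that carry biotin was not tested, since the arrays measured RNA. Cell cycle genes had 6 of 41 higher with miR-23b (14.6%), led by AURKB (11.40 and 12.09 against 10.27 and 10.51, 1.35 ± 0.14) and CDC25B (0.53), and 5 with miR-27a (12.2%), led by TOP2A (-0.64). Among 26 kinesins, KIF2A, which depolymerizes microtubules, had 9.42 and 9.39 against 11.31 and 11.12 (-1.81 ± 0.13) and passed in both fits, while KIFC1 (0.41) and KIF20A (0.64, groups overlapping) were higher with miR-23b. KIF2A lay 0.06 above its input with miR-23b and 2.12 above it with miR-27a. Of 31 genes for LIN28, IGF2BP and other mRNA-binding proteins, QKI (-0.73), TIA1 (-0.66) and 2 more were higher with miR-27a (12.9%), and PUM2 (0.64) and 1 more with miR-23b (6.45%).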

How the data were processed

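HEK293T cells were profiled on 8 Illumina arrays in 4 groups of 2. The deposited log2 values of 14479 probes were used. The authors made them with lumi 2.2.1, per the submitters' processing notes. Transformation, normalization between arrays, probe selection and genome build were not given in the sources used here. A variance-stabilizing scale would understate changes of dim probes, so folds are apparent. The non-normalized table was not used, because its 8 signal columns match no sample, and no detection filter was applied. The number of arrays limits the precision.

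Pull-down arrays were compared with limma 3.58.1 in R 4.3.3 (lmFit, eBayes, two-sided, Benjamini-Hochberg over all probes, adjusted p under 0.05), with replicate number as a block. The labels do not say what a number marks. Differences between replicates 2 and 1 correlated at r = 0.659 between the pull-downs and at 0.339 to 0.795 over the 6 pairs of groups. The fit was tested on simulated data. The inputs were fitted alike.

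Probes were named from the platform annotation (2469 had no gene and 2 several), and 12006 matched RefSeq (GRCh38.p14) by Entrez identifier, with 0 symbols changed. Alternatives were other spreads, normalizations, filters and priors, subtraction of the input, and leaving out arrays. The comparison, members, lists and families were chosen with earlier results of these data known. Named were the 15 genes with the largest difference in each direction, up to 3 called members per list by smallest p, the 3 reported targets of each miRNA with the smallest p, and up to 5 genes per direction whose probes all passed.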

Additional observations from a re-analysis of the deposited data

How the results depend on the processing

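With no replicate block 83 probes were higher with miR-23b, 54 higher with miR-27a and 0 differed between inputs, and 50 of the 150 genes named in the comparisons passed. With the spread from all 8 arrays 1307 and 1004 probes passed and 0 input probes, and 140 of the 150 genes, all but TNRC6A, TNRC6B, ERCC5, IFIT1, IRF7, ELOVL5, KLHL8, KIFC1, XIAP and MAP2K4. Median scaling left 0 input probes. Relative to input 138 of the 150 passed, and PPARG (-0.034) and TNRC6B (0.011) reversed. Quantile normalization, median scaling, a minimum mean of 8, an intensity trend and a robust prior kept the calls of all 150, and the mean over all probes of a gene kept 148. In unpaired fits without 1 array in turn, 0 to 26 probes were higher with miR-23b, 0 to 29 higher with miR-27a and 0 differed between inputs. Without either miR-27a pull-down array no probe, and none of the 150 genes, passed in limma (1197 and 1296 probes at an unadjusted p under 0.05), and TNRC6B reversed without replicate 2 (0.052). Without either miR-23b pull-down array 26 and 25 probes were higher with miR-23b, and 29 and 32 of the 150 genes passed. With 1 pair left there is no test. The distance of probes from background could not be judged.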
